A study of Mus musculus with 52 samples.

Results

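The guidance ligands and receptors described here are the protein-coding genes whose symbols begin with Efna, Efnb, Epha or Ephb and a digit, with Sema, Plxn, Unc5, Robo or Ntn, or that are Nrp1, Nrp2 or Slit1 to Slit3. By this rule 72 of the 21885 protein-coding genes of the annotation were members: 5 ephrin-A and 3 ephrin-B ligands, 9 Eph-A and 5 Eph-B receptors, semaphorins of class 3 (7 genes), class 4 (6), class 5 (2), class 6 (4) and class 7 (1), 2 neuropilins, plexins A (4), B (3), C (1) and D (1), 4 netrins and 2 netrin-Gs, 6 genes of the Unc5 prefix, 3 Slits and 4 Robos. The prefix also takes in Unc50, a Golgi membrane protein that is no netrin receptor, and Unc5cl, a gene named for its likeness to Unc5c. The study compared vascular endothelial cells (ECs) that form a blood-brain barrier with ECs that do not, in WT mice and in mice in which beta-catenin, the protein that carries canonical Wnt signals, was stabilized in ECs. All mice were adult males.

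For sorted cells, the WT mice were Tie2-GFP, in which Tie2 sequences drive GFP in ECs, and the stabilized mice were Tie2-GFP; Pdgfb-CreER; BcatEx3fl, in which Cre active in ECs removes the exon of beta-catenin that marks the protein for degradation. The sorted WT mice thus lacked the Cre as well. In the paper the sorted stabilized mice had received hydroxytamoxifen, while the sorted WT mice are named only as Tie2-GFP. RNA was taken from GFP-positive cells (ECs) and GFP-negative cells (parenchyma) of cerebellum, anterior pituitary and posterior pituitary, and ATAC-seq, which maps open chromatin, was run on the GFP-positive cells. For RiboTag, in which ribosomes of Cre-expressing cells carry an HA tag, WT mice were RiboTag; Pdgfb-CreER and stabilized mice RiboTag; Pdgfb-CreER; BcatEx3fl, and RNA was taken from HA-bound ribosomes (bound) and from the whole lysate (input) of cortex and choroid plexus. There were 52 samples in 26 groups of 2 replicates, of which 40 were RNA libraries and 12 ATAC-seq libraries. Mice were pooled for the pituitary samples and for the choroid plexus samples of RiboTag, and the p-values measure only the spread between these libraries. The paper compared RiboTag mice weeks after a hydroxytamoxifen injection. Pairs of values below are replicates 1 and 2.

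Ephrins bind Eph receptors on neighboring cells, and both partners can signal. Class 3 semaphorins are secreted and act through neuropilins and plexins, except that some bind a plexin directly, whereas most other semaphorins are bound to the membrane. Netrins bind Unc5 and Dcc receptors, and Slits bind Robos. These families were found as cues for growing axons, and in vessels ephrin-B2 and EphB4 mark arteries and veins, Nrp1 is a co-receptor for VEGF, plexin-D1 restricts sprouting, and Robo4 and Unc5b are receptors of ECs.

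One library of stabilized anterior pituitary ECs (replicate 2) carries conflicting labels, with anterior in the title and source name but posterior in the tissue field. It was taken as anterior. Whether the number of members called in stabilized over WT anterior pituitary ECs moved without it is also given. RNA libraries held 6409013 to 37529274 estimated reads. Endothelial markers (10 genes, among them Pecam1, Cdh5 and Kdr) summed to between 5377 and 11504 TPM in GFP-positive and between 6.47 and 159 in GFP-negative libraries. In RiboTag the bound libraries held 883 to 5141 and the inputs 31.1 to 256, and in WT the microglia list of 10 genes was also higher in bound than in input (9 of 10 called in each tissue). TPM here is rescaled so that the nuclear protein-coding genes of a library add up to the same total in every library (the usual TPM total), because short non-coding RNAs took up very different shares. One of these, Gm23935, held 31.0 to 52.3% of the deposited TPM in every RiboTag library except the 4 of WT cortex, where it held 0.123 to 0.410%. The WT cortex libraries therefore stood apart from the other 12 RiboTag libraries, and in comparisons of WT cortex with stabilized cortex or with choroid plexus this split cannot be told apart from the groups. Where 2 groups of bulk RNA differ, fewer cells of a type and less RNA per cell cannot be told apart.

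Members were present in every kind of sample, with a small set prominent in ECs. With detection set at 1 deposited TPM or more in each of the 2 replicates, 22 of 72 members were detected in all 6 sorted EC groups and 30 in none of these. In the 4 bound groups 24 members were detected throughout, and 6 members were detected in none of the 20 RNA groups. Among the 6 sorted EC groups the number detected ran from 26 (36.1%) in stabilized cerebellum ECs to 38 (52.8%) in stabilized anterior pituitary ECs, beside 37.8% and 47.6% of all protein-coding genes. Over all 20 groups it ran from 15 (20.8%, beside 38.5%) in stabilized choroid plexus input to 60 (83.3%, beside 53.2%) in WT cortex bound RNA. Gm23935 held 46.4 and 43.1% of the deposited TPM in that input and 0.410 and 0.407% in WT cortex bound RNA. At a cut of 0.5 TPM the lowest group was WT choroid plexus input (23) and the highest WT cortex bound RNA (63). At 5 TPM they were stabilized anterior pituitary parenchyma (4) and WT cortex input (37). By mean TPM as deposited, the highest levels in WT cerebellum ECs belonged to Sema3c, Plxnd1, Sema7a, Unc50 and Nrp1. In the ECs of both WT pituitary lobes they belonged to Plxnd1, Nrp1, Robo4, Sema7a and Unc50.

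**Figure D1:**
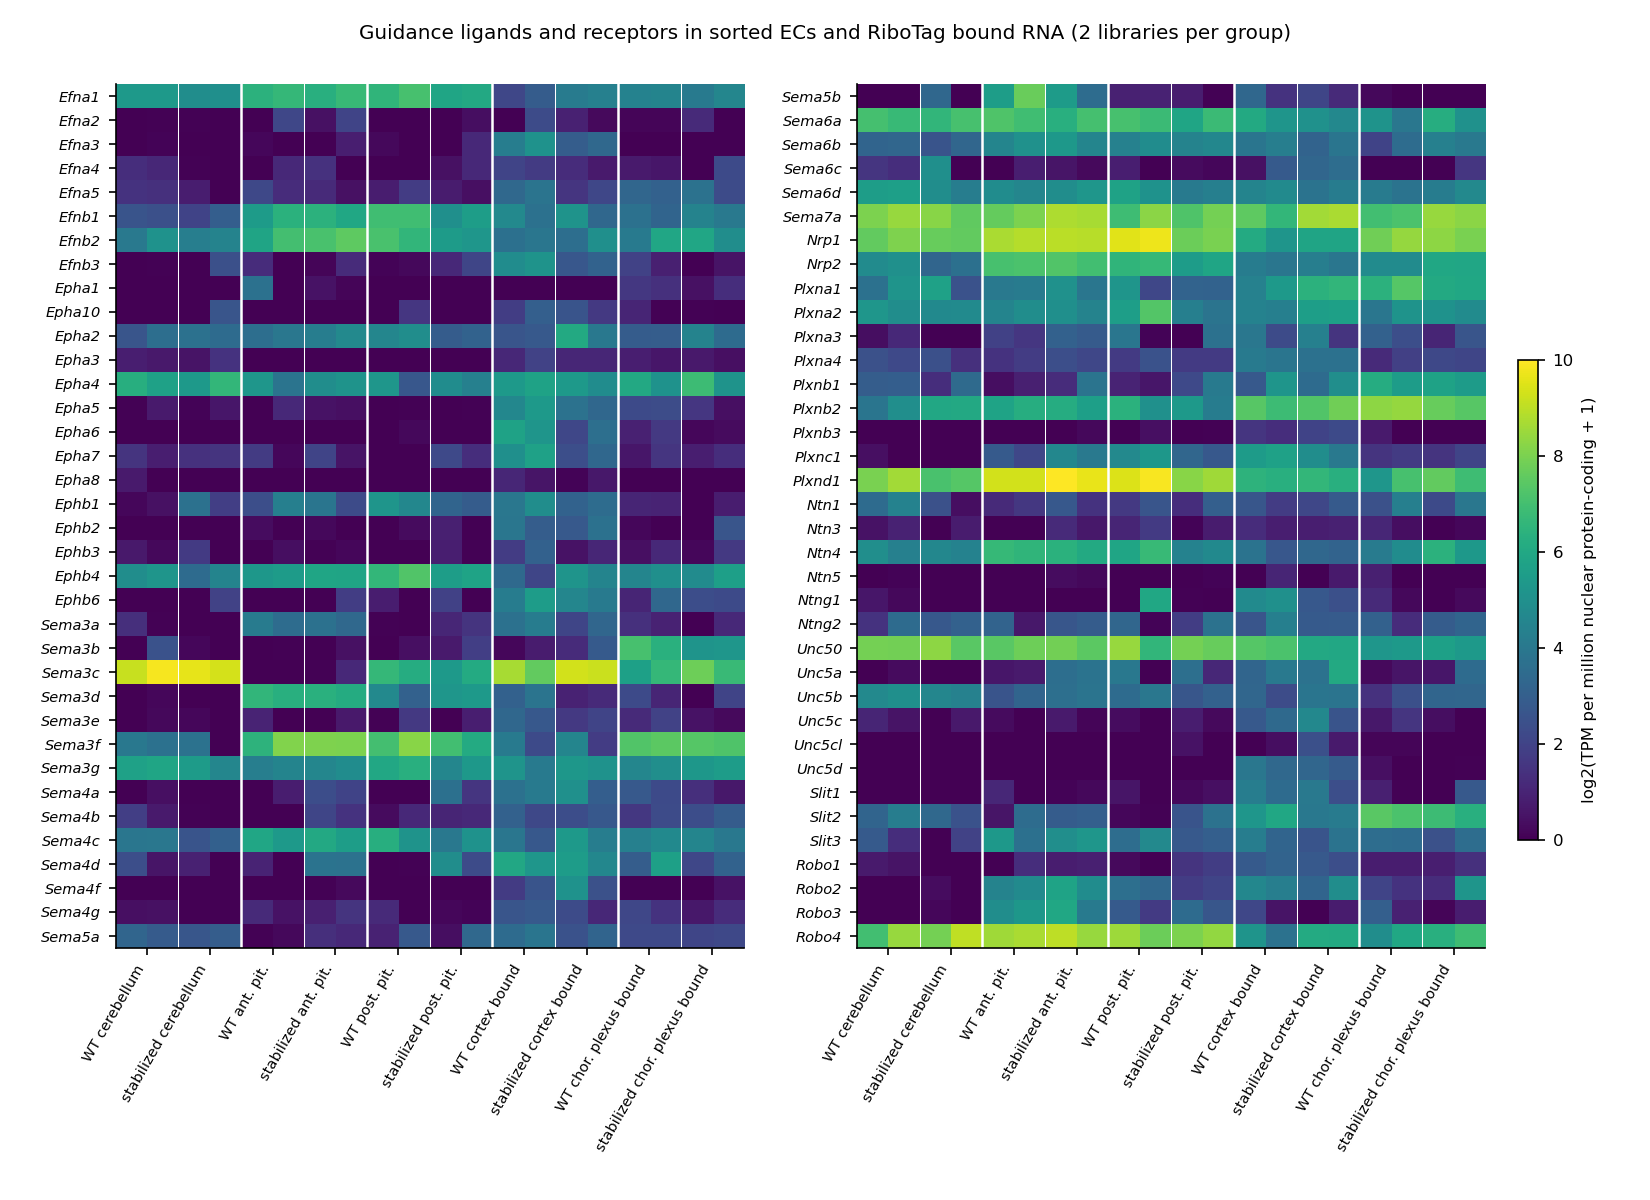
Level of each of the 72 members in the 20 libraries of sorted ECs and RiboTag bound RNA. Rows are members, columns are libraries (2 per group), and the color is log2(rescaled TPM + 1); Sema3c is bright in cerebellum and cortex and near 0 in anterior pituitary, and Nrp1, Plxnd1, Robo4 and Sema7a are bright in every sorted EC library.

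Ephb4, Nrp1, Robo4, Sema3g and Sema7a were higher in the EC fraction in all 5 WT tissues, and Nrp2, Plxnd1 and Sema6a also in all 3 sorted tissues. A gene was called, here and below, at an adjusted p under 0.05 (edgeR quasi-likelihood test, Benjamini-Hochberg adjustment over all genes of a fit) and a fold of at least 2. In cerebellum, Robo4 was at 126 and 346 TPM in WT ECs and at 0 and 2.37 in parenchyma. In anterior pituitary it was at 378 and 422 in ECs and at 0 and 1.28 in parenchyma. In posterior pituitary it was at 365 and 215 in ECs and at 0.0122 and 0 in parenchyma. The EC libraries were above the parenchyma libraries in each tissue. Sema3g, a secreted semaphorin made by vessels, had 51.6 and 58.5 TPM in cerebellum ECs beside 0.915 and 0.746 in parenchyma (log2 fold change 6.18 ± 0.95, SE, adjusted p = 0.000264). Nrp1 stood at 195 and 266 TPM in cerebellum ECs and 10.2 and 20.5 in parenchyma (4.14 ± 0.63, adjusted p = 0.000217). Sema7a, a membrane-anchored semaphorin, had 199 and 263 TPM in anterior pituitary ECs and 0 and 1.54 in parenchyma (6.94 ± 1.15, adjusted p = 0.00046). The counts of called members were 9 higher and 16 lower of 71 tested in cerebellum, beside 4.46% and 6.89% of all genes. They were 21 higher and 10 lower in anterior pituitary (5.46% and 5.87%), and 20 higher and 13 lower in posterior pituitary (7.07% and 7.45%). Some of these calls rested on the processing. Nrp2 lost that in cerebellum without parenchyma replicate 1 or 2 (adjusted p = 0.10 and 0.052). With an offset for effective gene length, Sema6a lost it in cerebellum and posterior pituitary, Sema7a in cortex and Ephb4 in choroid plexus. Ephb4 in choroid plexus also lost it without input replicate 1 or bound replicate 2 (adjusted p = 0.066 in each).

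Other members were called higher in the EC fraction of fewer tissues: the ligands Efna1, Efnb1, Efnb2 and Sema6b and the receptor Plxna2 in 3 of the 5, and the receptor Epha2 in 4. In choroid plexus the call of Efna1 was lost without WT input replicate 1 (adjusted p = 0.0681). There the call of Efnb1 was lost without any 1 of the 4 libraries, with no filter, with the length offset and with the block within each preparation, and that of Epha2 with the offset and without 3 of the 4 libraries. Sema6b lost it there with the offset and without input replicate 2 or bound replicate 2. In anterior pituitary Epha2 and Sema6b lost it without parenchyma replicate 2. Epha2 also lost it in cortex with the offset, and in posterior pituitary without parenchyma replicate 2 or EC replicate 2. Efna1, an ephrin-A known from activated vessels, had 91.7 and 137 TPM in posterior pituitary ECs beside 0.0411 and 0 in parenchyma, where it had 1 count over both libraries. Sema3c was called in cerebellum and cortex. Its cerebellum values were 566 and 926 TPM in ECs and 14.9 and 13.7 in parenchyma (5.90 ± 1.55, adjusted p = 0.0163). Plxnb1, Sema4d, Sema4f and Unc5c were lower in ECs than in parenchyma in all 3 sorted tissues. Plxnb1, the receptor of Sema4d, had 6.62 and 6.84 TPM in cerebellum ECs against 106 and 81.2 in parenchyma (fell by 4.16 on the log2 scale, SE 0.54, adjusted p = 4.84e-05). Sema4d itself had 4.27 and 0.497 against 88.1 and 146. Both genes were below the parenchyma in each EC library of cerebellum. Members with 0 counts over both WT cerebellum EC libraries that were called lower were Plxnb3 (at least 954-fold lower), Sema5b (at least 228-fold), Sema4f (at least 215-fold) and Robo2 (at least 127-fold), each against a floor of 3 counts over the group. In anterior pituitary Sema4f (at least 221-fold), Epha3 (at least 155-fold) and Unc5d (at least 38.5-fold) had 0 counts in ECs. In posterior pituitary Ephb3 (at least 148-fold) and Epha3 (at least 39.9-fold) did, and all 138 Epha3 counts of the parenchyma were in replicate 2. With a replicate block within each preparation, Ephb3, Epha3, Epha2 and Plxna4 lost the call in posterior pituitary, and Sema5b and Unc5d in cerebellum and in anterior pituitary. Some single libraries, when left out, ended the calls of Unc5c in each sorted tissue, Sema4d in cerebellum and anterior pituitary, Sema4f in posterior pituitary, and Sema3c and Plxnb3 in cerebellum.

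Sorted WT ECs of cerebellum differed from those of the pituitary in 18 of 66 tested members (anterior) and 14 (posterior), and Sema3c differed among all 3 tissues. Of all genes, 3.0% were called higher and 2.26% lower in cerebellum than in anterior pituitary ECs. Against posterior pituitary ECs 2.3% were called higher and 2.1% lower. In cerebellum ECs Sema3c had 566 and 926 TPM, in posterior pituitary ECs 101 and 71.8, and in anterior pituitary ECs 0.0223 and 0.0106. The 3 tissues did not overlap. The anterior pituitary libraries held 3 Sema3c counts in all, so that the ratio of cerebellum to anterior pituitary was 13658 (95% counting interval 4673 to 66234, counting error only). Against posterior pituitary ECs the log2 fold change was 2.79 ± 0.51 (adjusted p = 0.00627).

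Other class 3 semaphorins had other orders, and Sema3d had the reverse. It had 95.7 and 78.9 TPM in anterior pituitary ECs, 25.0 and 7.62 in posterior pituitary ECs and 0 and 0.143 in cerebellum ECs. Its cerebellum libraries held 3 counts, and the ratio of anterior pituitary to cerebellum was 2572 (interval 880 to 12475). Sema3f, which signals through Nrp2, had 15 and 12.4 TPM in cerebellum, 86.7 and 274 in anterior pituitary and 127 and 296 in posterior pituitary ECs. Both lobes lay above cerebellum (log2 fold change of cerebellum over anterior pituitary -4.13 ± 1.01, adjusted p = 0.0311; over posterior pituitary -5.03 ± 1.05, adjusted p = 0.0146), and the lobes overlapped each other. Sema3g was higher in cerebellum than in anterior pituitary ECs (51.6 and 58.5 against 18.6 and 21.6; 1.48 ± 0.34, adjusted p = 0.0228). Sema5b had 45.9 and 207 TPM in anterior pituitary ECs and 0 counts in cerebellum ECs, at least 499-fold lower. Sema5a was the reverse, with 8.65 and 6.30 TPM in cerebellum and 0.0479 and 0.160 in anterior pituitary ECs (6.47 ± 1.02, adjusted p = 0.0017). Sema6b, a membrane semaphorin, had 8.28 and 8.73 TPM in cerebellum and 22.5 and 32.2 in anterior pituitary ECs (-1.75 ± 0.38, adjusted p = 0.016).

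Of the semaphorin receptors called, all but Plxnb1 were lower in cerebellum than in pituitary ECs. Nrp2 had 27.3 and 31.3 TPM in cerebellum, 134 and 144 in anterior pituitary and 92.6 and 102 in posterior pituitary ECs. The 3 groups did not overlap, and both lobes differed from cerebellum (-2.21 ± 0.26, adjusted p = 0.000169, and -1.66 ± 0.26, adjusted p = 0.00182, cerebellum over lobe). Nrp1 had 195 and 266, 424 and 472, and 756 and 865 TPM in the same order. It passed the test against posterior pituitary (-1.88 ± 0.26, adjusted p = 0.000693). Plxnd1, the partner of the neuropilins in vessels, had 256 and 395 TPM in cerebellum, 642 and 644 in ECs of the anterior lobe and 712 and 967 in those of the posterior lobe, a difference of -1.17 ± 0.31 (adjusted p = 0.047) and -1.20 ± 0.31 (adjusted p = 0.0477). Plxnb1 was the exception, with 6.62 and 6.84 TPM in cerebellum and 0.291 and 0.847 in anterior pituitary ECs (3.32 ± 0.88, adjusted p = 0.0492), a call that was lost when any 1 of the 4 libraries was left out.

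Of the ephrins and Eph receptors called, all but Epha4 were lower in cerebellum ECs. Efnb1 had 5.11 and 4.39 TPM in cerebellum ECs, 44.4 and 82.1 in ECs of the anterior lobe and 122 and 121 in those of the posterior lobe. Neither lobe overlapped with cerebellum (-3.47 ± 0.39, adjusted p = 0.000134, and -4.23 ± 0.41, adjusted p = 6.57e-05). Efnb2, the arterial ephrin, had 15.4 and 33.1, 56.7 and 129, and 140 and 94.1 TPM (-1.86 ± 0.27, adjusted p = 0.000819, and -1.96 ± 0.27, adjusted p = 0.000708). Its receptor Ephb4 passed only against posterior pituitary, at 28.6 and 36.2 against 96.5 and 157 TPM (-1.81 ± 0.36, adjusted p = 0.0109). Ephb4 shares exon bases with Zan on the opposite strand, and reads of both genes could not be separated there: Salmon was left to detect the library type, and the type it found is not given in the sources used here. Ephb1, another receptor of ephrin-Bs, had 0.140 and 0.352 TPM in cerebellum, 4.35 and 18.7 in ECs of the anterior lobe and 36.5 and 23.8 in those of the posterior lobe (-4.78 ± 0.87, adjusted p = 0.00484, and -7.05 ± 0.96, adjusted p = 0.000706). Efna1 had 40.9 and 41.6 TPM in cerebellum and 91.7 and 137 in posterior pituitary ECs (-1.18 ± 0.30, adjusted p = 0.044). The exception was Epha4, a receptor of both ephrin classes, with 76.6 and 52.3 TPM in cerebellum, 36.8 and 13.5 in ECs of the anterior lobe and 37.4 and 5.55 in those of the posterior lobe (2.12 ± 0.38, adjusted p = 0.00417, and 2.31 ± 0.38, adjusted p = 0.003).

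Unc5b had 25.2 and 30.6 TPM in cerebellum ECs and 5.08 and 8.37 in anterior pituitary ECs (2.27 ± 0.41, adjusted p = 0.00484). Ntn4, a netrin of basement membranes, had 30.0 and 19.5 against 102 and 92.8 (-1.85 ± 0.38, adjusted p = 0.0108). Robo2 and Robo3 had 0 counts in both WT cerebellum EC libraries. Robo3 had 29.0 and 38.6 TPM in anterior pituitary ECs (at least 1867-fold over cerebellum) and 6.04 and 2.23 in posterior pituitary ECs (at least 267-fold), and Robo2 had 21.3 and 26.5 (at least 1131-fold) and 11.5 and 9.16 (at least 285-fold). Robo2 was not called between ECs and parenchyma of either lobe. In WT anterior pituitary it held 1448 and 1935 counts in ECs and 2189 and 1413 in parenchyma, and the part of parenchyma RNA in its difference was not tested. Robo4, which lies beside Robo3 on chromosome 9, had 126 and 346, 378 and 422, and 365 and 215 TPM and passed in neither test. Of the ligands, Slit2 and Slit3 had 8.41 and 17.8 and 6.12 and 1.47 TPM in cerebellum ECs and passed in no comparison of WT ECs. Ntn1 (10.3 and 20.9 TPM), Robo1 (0.661 and 0.430), Plxnc1 (0.331 and 0), Epha2 (5.18 and 11.4), Sema6a (130 and 106), Sema6d (46.4 and 48.7) and Sema7a (258 and 350) were also called in none of the comparisons among WT ECs.

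Counted over all members, cerebellum ECs were higher than anterior pituitary ECs for 6 members (3.0% of all genes tested) and lower for 12 (2.26%), and higher than posterior pituitary ECs for 2 (2.3%) and lower for 12 (2.1%). The median log2 difference of members was -0.56 and -0.57, beside 0 for all genes. The 2 comparisons share the cerebellum libraries. With an offset for effective gene length, 12 of the 18 kept the call against anterior pituitary (Epha4, Plxnb1, Plxnd1, Sema3f, Sema3g and Sema6b lost it) and 10 of the 14 against posterior pituitary (Efna1, Epha4, Plxnd1 and Sema3f lost it), none with a change of sign. Leaving out 1 library also ended calls. Against anterior pituitary, Sema5b and Sema6b lost theirs without either cerebellum replicate or anterior pituitary replicate 2, Plxnd1 without cerebellum replicate 1 or either anterior pituitary replicate, Sema3g without either anterior pituitary replicate and Ntn4 without cerebellum replicate 2. Against posterior pituitary, Plxnd1 and Efna1 lost theirs without cerebellum replicate 1 or posterior pituitary replicate 2, Efna1 also without cerebellum replicate 2, with no filter and with the replicate block, and Ephb4 without cerebellum replicate 1. Between the lobes, 4 members were lower in anterior than in posterior pituitary ECs (0.653% of all genes) and none higher by edgeR's quasi-likelihood test, where 7 members had an unadjusted p under 0.05 (5.34% of all genes) and DESeq2 called 16 in either direction (5.76%). The 4 were Sema3c (ratio 2235, interval 764 to 10842), Sema5a (0.0479 and 0.160 against 0.954 and 5.92 TPM), Sema3g (18.6 and 21.6 against 62.4 and 78.6) and Plxna2 (21.7 and 28.6 against 47.1 and 161). With the length offset Sema3c alone kept the call, and the number called moved when any 1 of the 4 libraries was left out. Pituitary endocrine markers (9 genes) summed to 18178 and 10634 TPM in anterior pituitary and 6055 and 1158 TPM in posterior pituitary ECs, beside 82.2 and 95 in cerebellum ECs. Pericyte genes differed as well. Pdgfrb had 43.9 and 38.6 TPM in WT cerebellum ECs, 0.916 and 1.84 in the anterior lobe and 8.71 and 7.83 in the posterior lobe. Notch3 had 21.8 and 22.2, 1.11 and 1.53, and 0.277 and 0.216 in the same order. Rgs5 had 1234 and 1412, 109 and 109, and 221 and 144. Cspg4 had 13.1 and 12.1, 0 and 1.86, and 0.742 and 1.23. Of the members higher in cerebellum than in pituitary ECs, Sema3c and Sema3g were called higher in cerebellum ECs than in parenchyma. Plxnb1 was called lower there, with 965 counts in WT ECs and 17487 in parenchyma. Epha4 (9448 and 8397 counts), Sema5a (3009 and 4649) and Unc5b (7703 and 1993) were not called between these fractions. The part of parenchyma RNA and of endocrine and pericyte genes in the differences among WT ECs was not tested.

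**Figure D2:**
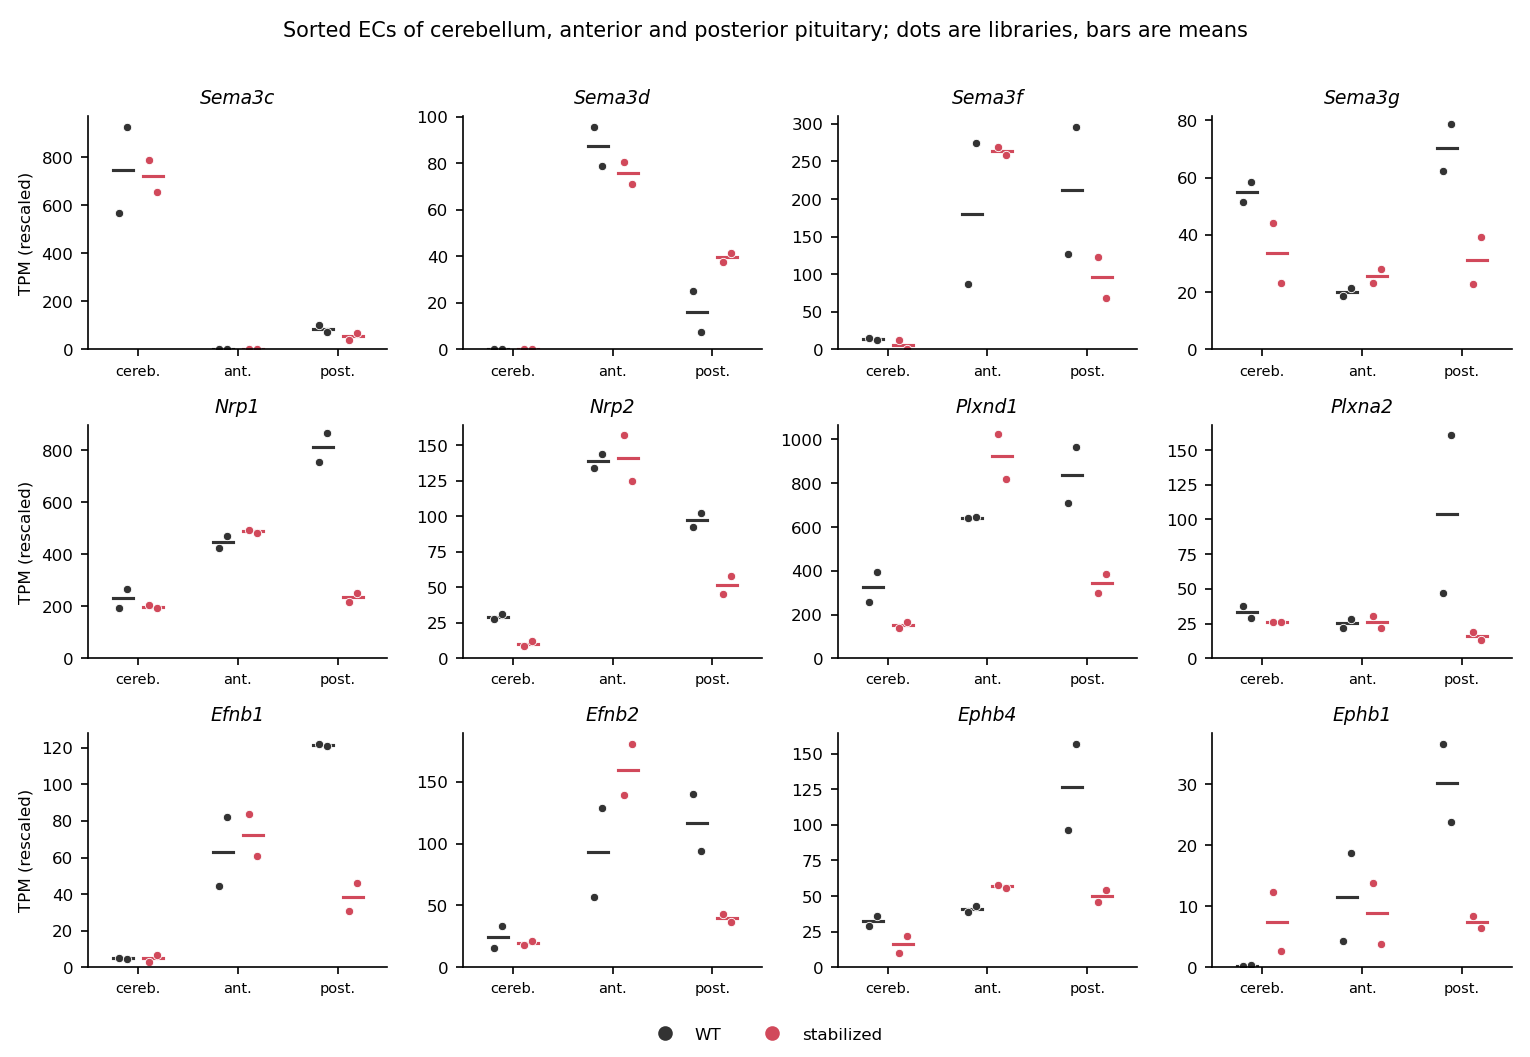
Levels of 12 members in sorted ECs of cerebellum, anterior and posterior pituitary, in rescaled TPM. Dots are libraries (black WT, red stabilized; 2 per group), bars are means, and each axis starts at 0; Sema3c is highest in cerebellum and near 0 in anterior pituitary, and the red dots of Nrp1, Plxna2, Efnb1 and Efnb2 lie below the black dots in posterior pituitary.

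The presence of ATAC-seq peaks at the promoters of Sema3c, Sema3d, Robo3 and Sema5b differed between tissues. Promoters were windows of 300 bases (250 before to 50 after the start site) from RefSeq on GRCm38, which gave 63 of 72 members. The value is the fold enrichment of the strongest peak over the window, and 0 means no peak in the library's list. The Sema3c promoter had 11.7 and 10.9 in cerebellum and, in posterior pituitary, 10.1 and 11.1 (all WT ECs), and no peak in both WT anterior pituitary libraries. Sema3d had 9.81 and 13.2 in anterior pituitary and no peak in the other 4 WT libraries. Robo3 (3.83 and 4.08) and Sema5b (3.81 and 5.15) likewise had peaks in WT ECs of anterior pituitary only, with low enrichments. The WT lists of that tissue were the longest, with 36860 and 45040 peaks beside 26394 and 24020 in cerebellum and 21050 and 20634 in posterior pituitary, and the part of list length in these 3 peaks was not tested. Each of these 4 promoters had a peak in both libraries of the WT tissue with the highest RNA, whereas WT posterior pituitary ECs had Sema3d and Robo3 RNA and no peak. Ephb1 had 5.12 and 0 in cerebellum, 11.4 and 13.3 in ECs of the anterior lobe and 12.3 and 12.0 in those of the posterior lobe. Efnb1 (13.1 and 15.2 in cerebellum, 9.47 and 10.4 in posterior pituitary) and Nrp2 (9.74 and 10.3, 7.76 and 8.32) had peaks in all 3 tissues, and Robo2 had a peak in none of the 12 libraries. In WT ECs, 25 of 63 member promoters had a peak in both cerebellum libraries (39.7%, beside 47.5% of all promoters), 41 (65.1%, beside 54.1%) in anterior and 28 (44.4%, beside 47.6%) in posterior pituitary.

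The 250 bases before the start are printed for 3 of these promoters, because their peaks were present in some WT tissues and absent in others and because they differ in CG dinucleotides, which are in capitals. The median count over the windows was 16 in members and 10 in all 16470 promoters. Strands are those of the gene.
Sema3c, chr5:17574566-17574815, plus strand, 39 CG: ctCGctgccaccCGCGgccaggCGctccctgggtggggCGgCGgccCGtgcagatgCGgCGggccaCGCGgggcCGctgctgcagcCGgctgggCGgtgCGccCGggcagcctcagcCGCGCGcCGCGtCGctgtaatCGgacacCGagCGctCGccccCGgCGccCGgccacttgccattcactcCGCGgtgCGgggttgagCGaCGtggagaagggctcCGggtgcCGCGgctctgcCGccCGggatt
Sema3d, chr5:12382916-12383165, plus strand, 4 CG: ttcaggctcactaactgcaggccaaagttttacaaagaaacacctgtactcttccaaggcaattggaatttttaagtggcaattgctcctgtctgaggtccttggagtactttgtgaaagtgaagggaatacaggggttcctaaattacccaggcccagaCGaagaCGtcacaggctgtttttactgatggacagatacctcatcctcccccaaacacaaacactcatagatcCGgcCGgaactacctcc
Robo3, chr9:37433176-37433425, minus strand, 12 CG: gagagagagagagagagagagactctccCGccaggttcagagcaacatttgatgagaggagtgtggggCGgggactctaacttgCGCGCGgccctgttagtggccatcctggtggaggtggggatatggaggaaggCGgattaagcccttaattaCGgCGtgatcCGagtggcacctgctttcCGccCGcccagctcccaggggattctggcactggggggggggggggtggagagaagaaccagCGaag
The Sema3c stretch holds 39 CG, the Robo3 stretch 12 and the Sema3d stretch 4.

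**Figure D3:**
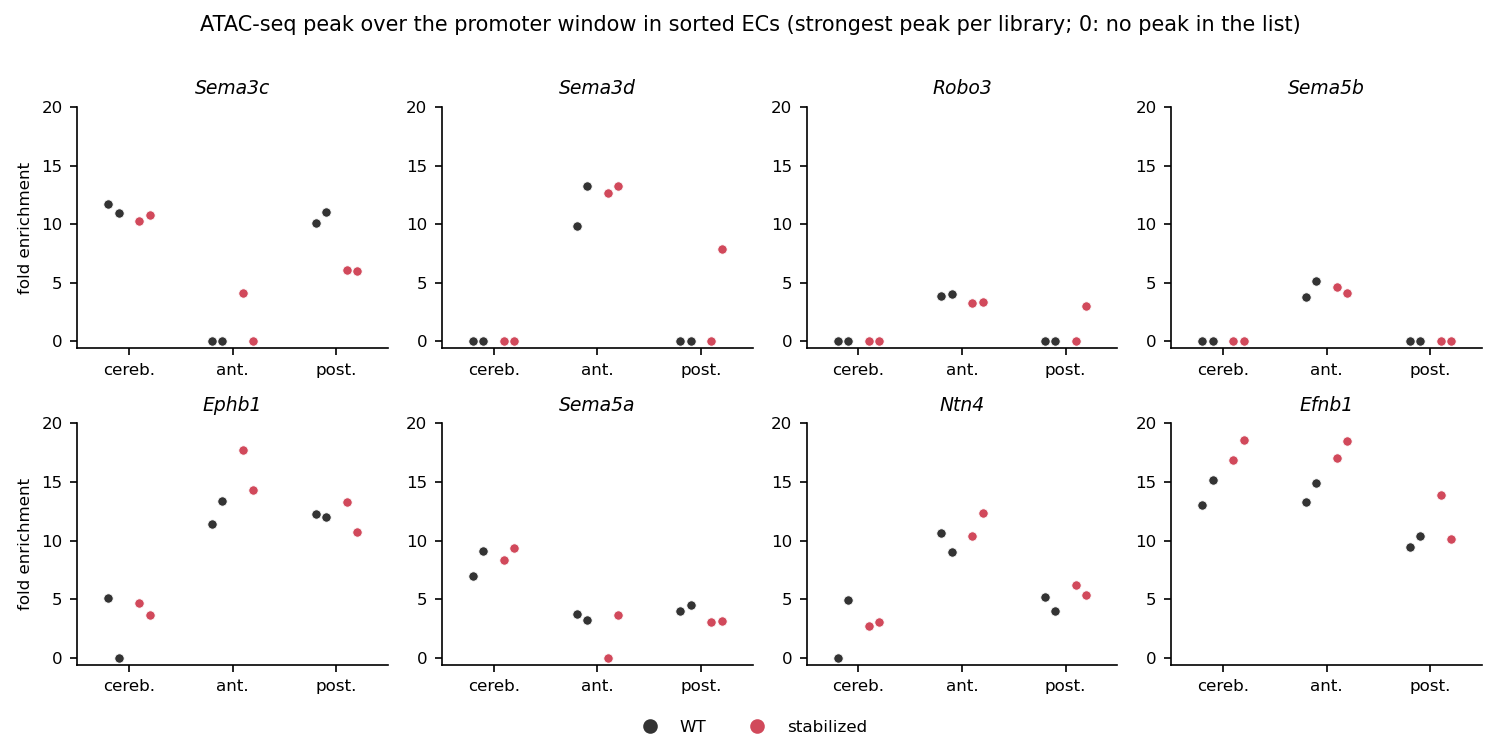
Strongest ATAC-seq peak over the promoter window of 8 members in sorted ECs, as MACS2 fold enrichment on an axis from 0. Dots are libraries (black WT, red stabilized), with 0 for no peak in the list; Sema3d, Robo3 and Sema5b have WT peaks in anterior pituitary alone, and Sema3c in cerebellum and posterior pituitary.

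In RiboTag, 13 of 72 members were called between WT cortex bound and input RNA and 17 in choroid plexus. In cortex 8 were higher in bound RNA (7.46% of all genes) and 5 lower (4.18%), and in choroid plexus 15 were higher (8.67%) and 2 lower (6.64%). In cortex, Sema3g had 35.5 and 16.2 TPM bound and 0.801 and 0.502 in input (5.13 ± 0.39, adjusted p = 2.12e-06). Robo4 had 35.5 and 12.8 against 0.792 and 1.24 (4.36 ± 0.40, adjusted p = 8.11e-06), Ephb4 9.71 and 3.26 against 0.355 and 0.558, and Sema3c 418 and 192 against 32.4 and 39.5. Epha2, Nrp1 (68.7 and 36.2 against 16.3 and 18.7), Sema7a and Plxnb2 (166 and 114 against 18.9 and 34.0) were the other 4, and each was above its inputs in both libraries. Lower in bound RNA were Robo1, Plxnb1, Efna5, Slit3 and Slit2, with log2 fold changes from -1.17 to -1.01. All 5 of these lost the call with no filter on low counts and with the length offset, Efna5 and Robo1 without any 1 of the 4 libraries, and Plxnb1, Slit3 and Slit2 without 3 of them each. In choroid plexus the strongest were Efna1 (20.5 and 21.9 against 0.340 and 0.748; 4.63 ± 1.0, adjusted p = 0.0055, and 4.11 with no call without input replicate 1, adjusted p = 0.0681), Sema3g (23.1 and 29.8 against 1.34 and 0.834), Robo4 and Sema7a (125 and 141 against 5.01 and 4.02). Epha2, Efnb2, Plxnd1 and Nrp1 followed, and Efna3 and Sema4f were lower, with 0 counts in bound RNA beside 9 and 12 in input (at least 2.3-fold and 3.07-fold). Both lost the call with the length offset and without 3 of the 4 libraries, and Sema4f also with the replicate block. With a block for the preparation the cortex count was 20 (13.2% of all genes). With an offset for effective gene length it was 7 in cortex (7.92%) and 9 in choroid plexus (12.7%).

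WT cortex and choroid plexus bound RNA differed in 33 of 70 tested members, 23 higher in cortex (15.8% of all genes) and 10 lower (13.9%). Among ligands, Sema3b had 0.137 and 0.690 TPM in cortex and 135 and 80.9 in choroid plexus (-7.15 ± 0.85, adjusted p = 0.000306). Sema3f had 16.2 and 3.75 against 154 and 179 (-3.97 ± 0.64, adjusted p = 0.0016), and Slit2 37.0 and 61.4 against 173 and 144 (-2.93 ± 0.29, adjusted p = 0.000124). The groups did not overlap for these genes. In input RNA Sema3b had 104 and 122 TPM and Slit2 62.5 and 89.4 in choroid plexus. Sema3c was higher in cortex, with 418 and 192 against 50.8 and 100 (1.35 ± 0.41, adjusted p = 0.0325), and Efna1 lower, with 3.40 and 6.59 against 20.5 and 21.9 (-2.83 ± 0.49, adjusted p = 0.00237). Among receptors, Nrp1 (68.7 and 36.2 against 225 and 337; -2.38 ± 0.35, adjusted p = 0.000959), Ephb4, Plxnb1 and Plxnb2 were lower in cortex. Efna3 (0 counts in choroid plexus, at least 87.6-fold) and Sema4f (0 counts, at least 53.4-fold), Unc5d (14.8 and 9.40 against 0.322 and 0), Ephb2, Epha6 (53.0 and 36.2 against 0.887 and 2.12), Epha7 (30.5 and 52.2 against 0.530 and 1.94), Ephb1 and Ntng1 were the genes most in excess in cortex. The neuron list (10 genes) summed to 2920 and 3607 TPM in WT cortex bound RNA and 81.1 and 55.6 in WT choroid plexus bound RNA. The choroid plexus epithelium list (8 genes, among them Ttr) summed to 38.2 and 8.92 TPM in the same cortex libraries and 85909 and 87805 in those of choroid plexus. The part of these lists in the differences was not tested. Of the 33, 22 kept the call with an offset for effective gene length, and that of Epha4, 1.85 (adjusted p = 0.000518), changed sign (-0.29, adjusted p = 0.75). Sema3c lost the call without WT cortex replicate 1 (0.63, adjusted p = 0.20) and without either choroid plexus replicate (adjusted p = 0.12 and 0.11).

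With stabilized beta-catenin, cerebellum ECs had 1 member called, Nrp2, which fell. Nrp2 had 27.3 and 31.3 TPM in WT and 8.56 and 12.0 in stabilized cerebellum ECs, with no overlap (-1.58 ± 0.26, adjusted p = 0.0129). That is 1 of 66 tested members, beside 0.581% of all genes called lower. Pericyte genes moved in the same libraries. Pdgfrb went from 43.9 and 38.6 to 23.8 and 7.80 TPM, Notch3 from 21.8 and 22.2 to 13.0 and 13.3. Rgs5 went from 1234 and 1412 to 956 and 862, while Cspg4 overlapped (13.1 and 12.1, then 22.4 and 5.40). Their part in the Nrp2 difference was not tested. Plxnd1 (256 and 395 to 139 and 165 TPM, -1.22 ± 0.31, adjusted p = 0.13) and Ephb4 (28.6 and 36.2 to 10.2 and 22.1, -1.06 ± 0.36, adjusted p = 0.33) were not called although their libraries did not overlap. Sema3c had 790 and 657 TPM beside 566 and 926 in WT, a difference of 0.18 ± 0.48. The median over members was -0.42 and over all genes -0.08. The median effective length of the members' transcripts was 966 and 640 bases in the stabilized and 2047 and 2607 in the WT libraries. Nrp2 had -1.51 with an offset for effective length and lost the call (adjusted p = 0.105), and DESeq2 called 12 members (4.34% of all genes) and edgeR with no filter on low counts 8 (2.25%). The number called moved when any 1 of the 4 libraries was left out, and Nrp2 kept the call in each.

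In anterior pituitary ECs no member was called by edgeR's quasi-likelihood test (0 of 66, beside 0.458% of all genes). At an unadjusted p under 0.05 there were 6 (6.99% of all genes), and DESeq2 called 4 (2.79%). With no filter on low counts edgeR called 2 (1.75%). Nrp1 had 424 and 472 TPM in WT and 494 and 482 in stabilized ECs, Nrp2 134 and 144 and then 157 and 125, and Sema3d 95.7 and 78.9 and then 80.6 and 71.0. Sema3c, with 3 counts in WT, was at 0.0510 and 1.2 TPM in stabilized ECs, below its level in every EC library of cerebellum. Unc5b, a netrin receptor, had 5.08 and 8.37 TPM in WT and 11.5 and 13.5 in stabilized ECs (0.96 ± 0.40, adjusted p = 0.66). The number of members called moved without the library with the conflicting label (stabilized replicate 2) and without stabilized replicate 1.

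In posterior pituitary ECs 3 members fell with stabilized beta-catenin. Nrp1 had 756 and 865 TPM in WT and 216 and 252 in stabilized ECs (-1.72 ± 0.25, adjusted p = 0.00448). Plxna2, a receptor partner of the neuropilins, had 47.1 and 161 and then 19.0 and 13.4 (-1.83 ± 0.29, adjusted p = 0.00716). Efnb2 had 140 and 94.1 and then 43.3 and 36.8 (-1.40 ± 0.26, adjusted p = 0.0206). In each gene the groups did not overlap. These are 3 of 66 members, beside 0.541% of all genes called lower. In both directions together, DESeq2 called 15 members (6.61% of all genes) and edgeR with no filter on low counts 12 (3.76%). Beside WT cerebellum ECs, the stabilized Nrp1 values lay within the WT cerebellum values (195 and 266 TPM), those of Plxna2 below (37.5 and 28.8) and those of Efnb2 above (15.4 and 33.1).

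Several other members of the same pathways had both stabilized posterior pituitary libraries below both WT libraries without passing the test. Efnb1 had 122 and 121 TPM in WT and 30.5 and 45.8 in stabilized ECs (-1.23 ± 0.36, adjusted p = 0.13). Plxnd1 had 712 and 967 and then 300 and 385 (-0.95 ± 0.31, adjusted p = 0.17). Nrp2, Sema3c (101 and 71.8 to 40.9 and 68.7), Sema3g (62.4 and 78.6 to 23.0 and 39.4), Sema6d and Ephb4 (96.5 and 157 to 45.9 and 54.1) were placed the same way. In all, 24 of 66 tested members lay below WT in both stabilized libraries (19.1% of all genes did) and 12 above (22.2% of all genes). Epha4, a member higher in cerebellum than in pituitary ECs, had 37.4 and 5.55 and then 28.4 and 19.2 TPM, with overlap (1.36 ± 0.37, adjusted p = 0.10). The members' median was -0.44 and that of all genes 0.01, and 20 members had an unadjusted p under 0.05 (12.9% of all genes). The ligands Slit2 (0.143 and 0.0506 to 4.99 and 12.8) and Sema4d (0.0205 and 0.0395 to 28.9 and 3.89), both called lower in WT ECs than in parenchyma, stood above WT in both libraries and were not called.

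Other cells' markers moved in the same libraries. In posterior pituitary the endothelial list summed to 11504 and 9669 TPM in WT and 7401 and 6734 in stabilized ECs, with 2 of 10 genes called lower (Kdr and Pecam1). The microglia and macrophage list summed to 13.3 and 2.90 and then 850 and 706 TPM, with 3 of 10 called higher (C1qa, C1qb and Csf1r). The nuclear protein-coding share of the deposited TPM was 56.1 and 41.4% in WT and 29.7 and 28.1% in stabilized libraries. Their part in the members' differences was not tested. With an offset for effective length, 2 members were called (0.915% of all genes), and Efnb2 lost the call (adjusted p = 0.20). Efnb2 also lost it without WT replicate 2 or either stabilized replicate (adjusted p from 0.0599 to 0.162). The number of members called also moved without WT replicate 1.

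**Figure D4:**
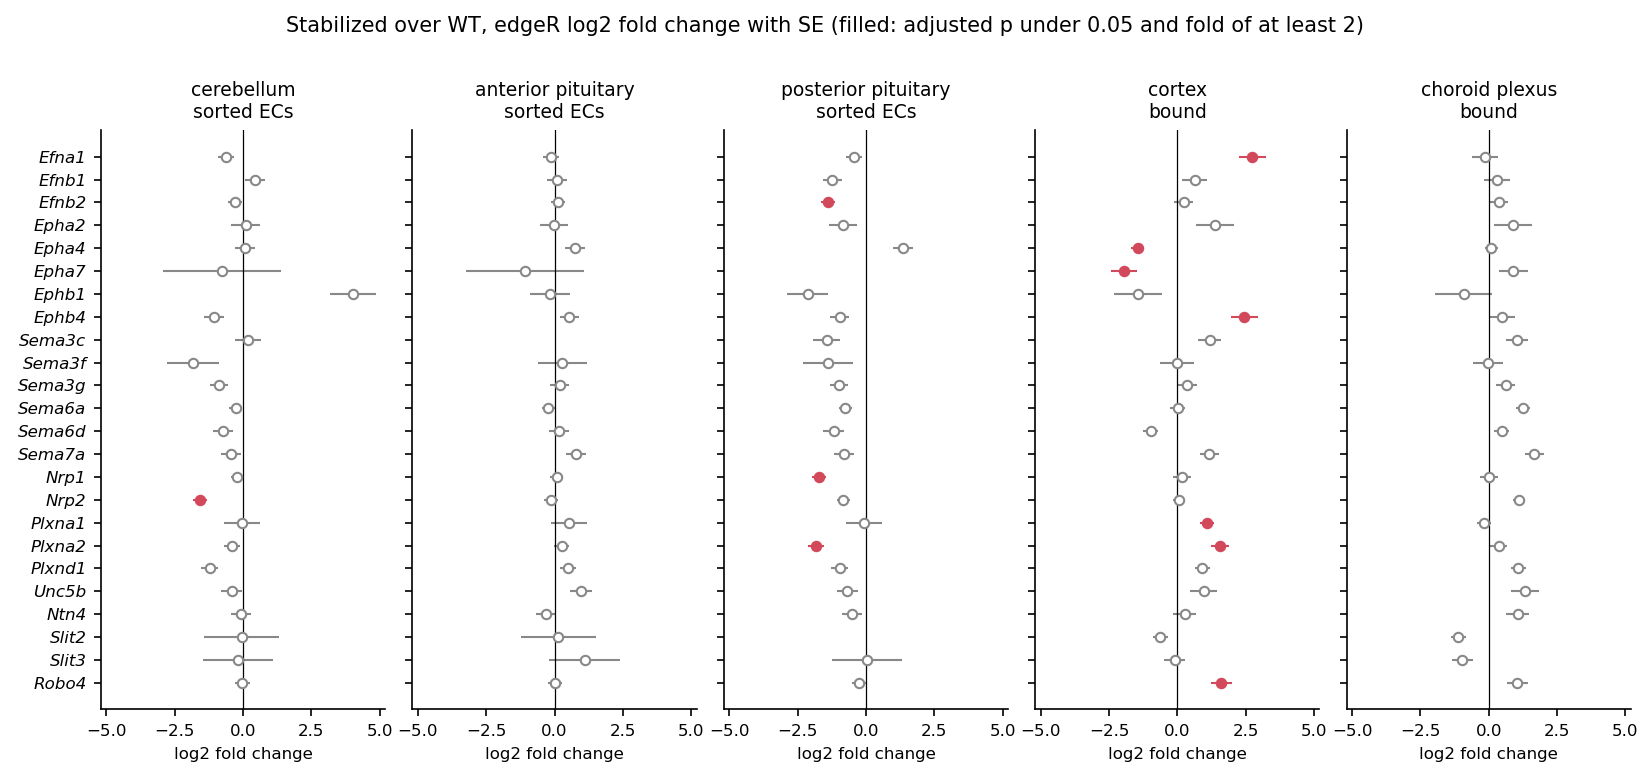
Log2 fold change of stabilized over WT for 24 members in 5 EC comparisons, with bars of 1 SE from edgeR's fit; genes with at most 3 counts in a group are left out. Filled red points passed an adjusted p of 0.05 and a fold of 2; Nrp1, Plxna2 and Efnb2 lie to the left in posterior pituitary, Nrp2 in cerebellum, and Efna1, Ephb4, Robo4, Plxna1 and Plxna2 to the right in cortex.

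In cortex bound RNA, 5 members rose in stabilized mice (3.65% of all genes rose) and 3 fell (2.67%), of 70 tested. In both directions together, DESeq2 called 13 members (10.9% of all genes) and edgeR with no filter 14 (8.11%). Efna1 had 3.40 and 6.59 TPM in WT and 17.1 and 19.6 in stabilized mice (2.74 ± 0.49, adjusted p = 0.0137). Ephb4 had 9.71 and 3.26 and then 35.4 and 22.0 (2.45 ± 0.50, adjusted p = 0.0232). Robo4 had 35.5 and 12.8 and then 68.3 and 67.0 (1.61 ± 0.38, adjusted p = 0.0382). For these genes the groups did not overlap, and Ephb4 and Robo4 were among the members higher in WT cortex bound RNA than in input. Plxna2 had 20.5 and 18.7 and then 48.3 and 50.8 (1.56 ± 0.32, adjusted p = 0.0234), and Plxna1, a semaphorin receptor, 20.1 and 40.6 and then 84.4 and 94.0 (1.09 ± 0.26, adjusted p = 0.041). Of the genes that fell, Epha7 had 30.5 and 52.2 and then 4.28 and 9.17 TPM (-1.97 ± 0.48, adjusted p = 0.0413). Unc50 had 164 and 144 and then 64.0 and 62.8 (-1.44 ± 0.35, adjusted p = 0.041). Epha4 fell in estimated reads (-1.45 ± 0.24, adjusted p = 0.0103), while on the TPM scale, which divides by effective length, 40.0 and 53.1 overlapped with 42.0 and 28.1.

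Neuronal and endothelial markers differed between the same bound libraries. The neuron list summed to 2920 and 3607 TPM in WT and 1695 and 1519 in stabilized cortex bound RNA (2 of 9 tested called lower, Syt1 and Slc17a7), and the endothelial list to 2180 and 883 and then 3978 and 3379 (2 of 10 called higher, Eng and Tie1). Their part in the members' differences was not tested. Nrp1 (68.7 and 36.2 to 55.7 and 55.7), Plxnd1 (87.5 and 77.9 to 98.5 and 77.4), Efnb2, Nrp2, Sema3g and Sema6a were among the EC members not called. Sema3c (418 and 192 to 632 and 582; 1.18 ± 0.41, adjusted p = 0.12) and Sema7a (183 and 97.8 to 394 and 426; 1.17 ± 0.34, adjusted p = 0.076) lay above WT in both libraries without passing the test. With an offset for effective length 1 member was called in place of 8 (3.41% of all genes were). The adjusted p of the 8 then ran from 0.0544 to 0.886. Plxna1 and Unc50 lost the call with the replicate block and without WT replicate 1. Without stabilized replicate 1 none of the 8 kept the call, and without stabilized replicate 2 only Epha4 and Ephb4 did. The number called also moved without WT replicate 2. DESeq2 called 13 (10.9% of all genes).

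In choroid plexus bound RNA no member was called by edgeR after the filter on low counts (0 of 70, beside 0.852% of all genes), with 19 at an unadjusted p under 0.05 (13.9%) and 7 called by DESeq2 (3.70%). With no filter, edgeR called 11 members (3.32% of all genes). Nrp2 had 27 and 27.5 TPM in WT and 61.6 and 59.9 in stabilized mice (1.11 ± 0.22, adjusted p = 0.064). Sema7a had 125 and 141 and then 351 and 306 (1.67 ± 0.35, adjusted p = 0.073), and Sema6a 34.5 and 14.7 and then 75.1 and 32.0 (1.24 ± 0.26, adjusted p = 0.076). Sema7a and Nrp2 did not overlap between the groups and Sema6a did. Slit2 had 173 and 144 and then 115 and 78.2 (-1.12 ± 0.27, adjusted p = 0.11). Efna1, Ephb4, Nrp1 and Sema3f had log2 differences between -0.14 and 0.48.

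**Figure D5:**
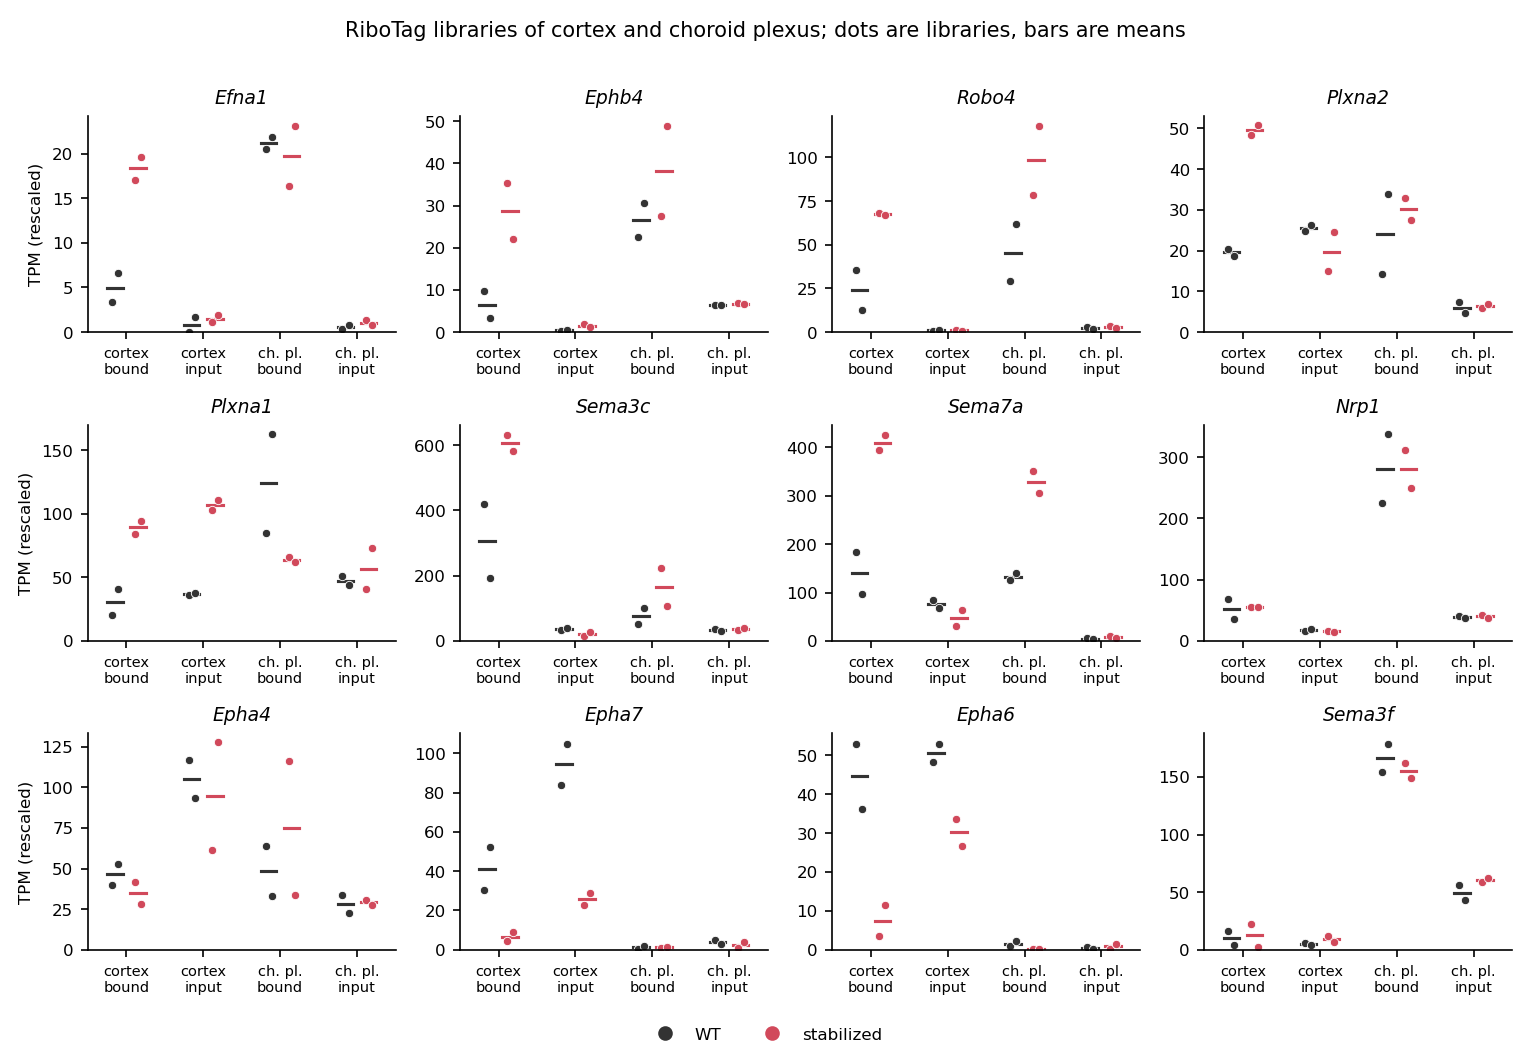
Levels of 12 members in RiboTag bound and input RNA of cortex and choroid plexus, in rescaled TPM. Dots are libraries (black WT, red stabilized; 2 per group), bars are means, and each axis starts at 0; Efna1, Ephb4, Robo4 and Plxna2 are higher in stabilized than in WT cortex bound RNA, Epha7 is lower, and Sema3f and Nrp1 are higher in choroid plexus than in cortex bound RNA.

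Tested as an interaction by edgeR after the filter on low counts, the response to stabilized beta-catenin differed between posterior pituitary and cerebellum ECs for 1 member. Other settings moved that count (0 with the length offset, 10 or 3.28% of all genes with no filter, and 12 or 5.88% by DESeq2). It also moved without WT cerebellum replicate 2, WT posterior pituitary replicate 1 or either stabilized cerebellum replicate. Ephb1 in cerebellum ECs had 0.140 and 0.352 TPM in WT and 12.3 and 2.59 in stabilized mice (4.02 ± 0.84, adjusted p = 0.0574). In posterior pituitary ECs it had 36.5 and 23.8 and then 8.40 and 6.45 (-2.13 ± 0.76, adjusted p = 0.22). The libraries moved in opposite directions with no overlap in either tissue. The interaction was -6.15 ± 1.13 (adjusted p = 0.0259), 1 of 66 members beside 0.0670% of all genes called lower. With the length offset it was -6.71 (adjusted p = 0.0537), and without any 1 of the 8 libraries its adjusted p stayed between 0.000155 and 0.044. Between posterior and anterior pituitary no interaction was called (0 of 66, beside 0.128% of all genes; 16 at an unadjusted p under 0.05, beside 9.09%, 9 by DESeq2, beside 2.48%, and 7 with no filter, beside 1.61%). The number called by edgeR after the filter moved without WT posterior pituitary replicate 1. Between choroid plexus and cortex bound RNA none was called either (0 of 70, beside 2.15%, with 14 unadjusted, beside 17.6%, 7 by DESeq2, beside 6.58%, and 6 with no filter, beside 5.2%). There the number called by edgeR after the filter moved without WT cortex replicate 1 or 2. The fall of Nrp1, Plxna2 and Efnb2 in posterior pituitary was thus not shown to differ from the anterior pituitary response.

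In the parenchyma of cerebellum 1 member fell, Slit2, a ligand of Robos (36.1 and 72.3 TPM to 15.3 and 0.641; -4.16 ± 0.65, adjusted p = 0.0128; 1 of 70, beside 0.627% of all genes). An offset for effective length left no member called there, and the number called moved without stabilized replicate 1 or 2. The choroid plexus epithelium list summed to 7.18 and 17353 TPM in these WT libraries and 3.26 and 656 in the stabilized ones (0 of 8 called), and the neuron list to 1135 and 1897 and then 3942 and 5734 (2 of 10 called higher, Snap25 and Syt1). Their part in the Slit2 difference was not tested. No member was called in the parenchyma of anterior pituitary (0.0408% of all genes; 7 unadjusted, beside 5.51%, 3 by DESeq2, beside 1.46%, and 4 with no filter, beside 0.924%) or posterior pituitary (0.133%; 6 unadjusted, beside 9.94%, 3 by DESeq2, beside 4.18%, and 3 with no filter, beside 2.06%). In cortex input RNA, 3 members rose (8.44% of all genes) and 5 fell (3.38%) of 72. Plxna1 rose from 36.0 and 37.9 to 103 and 111 TPM (1.0 ± 0.14, adjusted p = 0.00231), Unc5a from 39.1 and 45.8 to 73.2 and 116 (1.09 ± 0.16, adjusted p = 0.00326) and Ephb4 from 0.355 and 0.558 to 1.82 and 1.29. Epha7 fell from 84.0 and 105 to 22.6 and 29.1 TPM (-1.30 ± 0.39, adjusted p = 0.0468), Unc50 from 153 and 176 to 66.5 and 73.1, and Ephb3 and Efna5 also fell. Epha4 was called in reads (-1.30 ± 0.20, adjusted p = 0.00389) with overlapping TPM (117 and 93.5 against 61.2 and 128), and with the length offset the difference was 0.08 (adjusted p = 0.90). That offset ended 5 of the 8 calls in input, those of Efna5, Epha4, Epha7, Unc50 and Unc5a, and the number called also moved without stabilized replicate 1. In these inputs the neuron list summed to 6685 and 6836 TPM in WT and 4390 and 5336 in stabilized mice (0 of 9 tested called), the endothelial list to 69.3 and 31.1 and then 109 and 118 (1 of 9 called higher, Pecam1), and the choroid plexus epithelium list to 20.4 and 28.0 and then 114 and 1237 (3 of 8 called higher). Their part in the members' differences was not tested. Unc5a shares exon bases with Hk3 on the opposite strand, with the same limit as Ephb4 and Zan. Plxna1, Ephb4, Epha4, Epha7 and Unc50 were called in the same direction in bound and input cortex RNA, and of these 5 only Ephb4 kept the input call under all 9 alternatives. Epha7 lost it with DESeq2 and without any 1 of the 4 libraries, and Plxna1, at a log2 difference of 1.0, with DESeq2, RLE normalization, no filter, the replicate block, and without WT or stabilized replicate 1. In choroid plexus input no member was called (0.106% of all genes; 8 unadjusted, beside 7.41%, 2 by DESeq2, beside 0.802%, and 5 with no filter, beside 1.54%).

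Peaks of open chromatin gained in stabilized ECs, present in both stabilized and neither WT library, lay within 100 kb of 45 of 72 members in cerebellum, 20 in anterior and 47 in posterior pituitary ECs. These are 62.5, 27.8 and 65.3% of members, beside 45.4, 27.3 and 50.8% of all genes. The members' genes are longer (median 51457 bases beside 17411), and a longer gene has a wider window. The part of gene length in these shares was not tested. Lost peaks lay near 4, 18 and 3 members (5.56, 25 and 4.17%, beside 6.38, 19.6 and 4.57% of all genes). The deposited peak lists were longer in stabilized than in WT ECs of cerebellum (33514 and 31669 peaks against 26394 and 24020) and posterior pituitary (28926 and 38583 against 21050 and 20634), and overlapped in anterior pituitary (40071 and 42621 against 36860 and 45040). The part of list length in the gained and lost counts was not tested. Sema7a and Ntn5 had 8 gained peaks each in posterior pituitary, Nrp2 had 5 there and Nrp1 4. Of the distinct gained peaks near members, 7 of 74 in cerebellum (9.46%), 6 of 25 in anterior (24%) and 11 of 126 in posterior pituitary (8.73%) held ATCAAAG or TTCAAAG, the core letters that TCF/LEF factors of the Wnt pathway bind, on either strand within 201 bases around the summit. Of all gained peaks, 12.9, 21.7 and 15.3% held them. Among promoter windows 3 of 63 members (4.76%) did, beside 7.70% of all.

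Stretches of 61 bases around these letters (in capitals, with GRCm38 coordinates and the strand that reads the motif) are printed for 4 members whose levels are described above.
Ephb1, chr9:101864593-101864653, minus strand, gained in anterior and posterior pituitary, downstream of the gene: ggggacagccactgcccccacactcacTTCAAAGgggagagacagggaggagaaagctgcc
Epha4, chr1:77420400-77420460, minus strand, gained in anterior pituitary, in an intron: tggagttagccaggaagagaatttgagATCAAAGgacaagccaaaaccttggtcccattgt
Nrp2, chr1:62766928-62766988, minus strand, gained in anterior pituitary, in an intron: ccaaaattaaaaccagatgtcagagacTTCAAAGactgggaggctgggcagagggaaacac
Sema7a, chr9:57965459-57965519, minus strand, gained in posterior pituitary, downstream of the gene: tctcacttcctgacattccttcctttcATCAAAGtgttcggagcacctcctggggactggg
The Epha4 peak had fold enrichments of 11.3 and 9.35 in the stabilized libraries and the Nrp2 peak 4.11 and 5.2. Neither Epha4 nor Nrp2 RNA was called in anterior pituitary ECs. At promoters, the Sema3c window had 6.08 and 6.01 in stabilized posterior pituitary ECs beside 10.1 and 11.1 in WT, and Sema3g 8.02 and 7.47 beside 3.78 and 3.87. Nrp1 stayed between 2.60 and 3.25 in the 4 posterior pituitary libraries, while its RNA fell there.

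The wider pathway was followed in 63 partner genes (co-receptors, adaptors and effectors). In cerebellum ECs, where 0.0670% of all genes were called higher and 0.581% lower, 1 of 60 partners rose and 1 fell. Srgap3, an effector of Robos, rose from 2.49 and 1.49 to 8.88 and 16.7 TPM (2.65 ± 0.53, adjusted p = 0.0436), and Vav3, an exchange factor downstream of Eph receptors, fell from 2.08 and 3.26 to 0.0219 and 0. In anterior pituitary none of 60 tested partners was called (0.458% of all genes). In posterior pituitary 2 of 60 rose (1.25% of all genes), Srgap3 (0.148 and 0.112 to 15.6 and 22.8 TPM; 7.94 ± 0.69, adjusted p = 6.82e-05) and Chn2 (35.5 and 26.5 to 62.2 and 86.8), and 3 fell (0.541% of all genes), the VEGF receptor Kdr (994 and 1297 to 257 and 316), the focal adhesion kinase Ptk2 and Arhgef15. Kdr is also on the endothelial list, where it was called lower together with Pecam1, as given above. A link between the falls of Kdr and Nrp1 was not tested. In cortex bound RNA 3 of 62 rose (Chn2, Flt4 and Arhgef15) and 3 fell (Chn1, Pak1 and Flrt2), beside 3.65% and 2.67% of all genes. In choroid plexus bound RNA 2 of 62 were called higher (0.656% of all genes) and none lower. Srgap1 rose from 0.720 and 0.534 to 3.09 and 18.5 TPM, and Tiam1 was called in estimated reads (1.35 ± 0.24, adjusted p = 0.0361) while its TPM overlapped (78.2 and 31.3 against 79.3 and 38.2). Srgap3 also passed the interactions of posterior pituitary with anterior pituitary (7.38 ± 0.80, adjusted p = 0.00246) and with cerebellum (5.29 ± 0.77, adjusted p = 0.00651).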

How the data were processed

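RNA-seq of sorted GFP-positive and GFP-negative cells, RiboTag RNA-seq and ATAC-seq were measured in 52 samples of 26 groups. Per the submitters' processing notes, Salmon 0.10.2, kallisto 0.44.0, Bowtie2 2.3.2, Picard, MACS2 2.1.1.20160309 and deepTools were used. The deposited RNA files hold the authors' Salmon estimated counts and TPM for 130740 transcripts, with the library type left for Salmon to detect (the type found is not given in the sources used here). The deposited ATAC-seq peak lists, 1 per library, hold MACS2 fold enrichment (a ratio) and -log10 p and q, filtered by the authors to peaks above 2 in both fold enrichment and -log10 q.

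Gene values are sums over transcripts in the GENCODE annotation of GRCm38 (402 transcripts did not match), and estimated counts were rounded. Libraries held 6409013 to 37529274 estimated counts, and intervals and floors cover counting error only. Levels are TPM rescaled to nuclear protein-coding genes, a scaling chosen after seeing the data. The counts of detected members use TPM as deposited. Genes were tested with edgeR 4.0.16 (R 4.3.3; quasi-likelihood, TMM, filterByExpr, 1 coefficient per group) in 6 fits: 12 GFP-positive libraries (66 of 72 members passed the filter), 24 sorted libraries (71), 12 GFP-negative (70), 8 bound (70), 16 RiboTag (72) and 8 input libraries (72). Calls required a Benjamini-Hochberg adjusted p under 0.05 and a fold of at least 2. The script was tested on data with known changes. Bounds against groups at 0 used a floor of 3 counts over the group, and ratios carry 95% counting intervals. A peak was gained when both stabilized and neither WT library had it, and it was near a gene within 100 kb of the gene body. Overlap of 1 base counted as shared.

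Alternatives were DESeq2 1.42.0, RLE normalization, no filter on low counts, a replicate block, an offset for effective gene length, leaving out each library, and for peaks a fold enrichment over 4 with -log10 q over 5 and a window of 10 kb. Tables were handled with pandas 2.3.3, and figures were drawn with matplotlib 3.10.9. The members, the partner and marker lists and the tests were chosen with earlier results of these data known. Every called member was named in EC genotype comparisons (up to 15) and up to 8 per direction by size of change elsewhere, with a set of 23 vascular guidance genes named whether called or not.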

Additional observations from a re-analysis of the deposited data

Results flagged for a closer look

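Ephb1 was picked out because its responses in the ECs of 2 tissues differed by a test of the difference itself. The response in posterior pituitary minus that in cerebellum was -6.15 on the log2 scale (edgeR quasi-likelihood interaction, adjusted p = 0.0259). Both stabilized libraries lay above both WT libraries in cerebellum and below both in posterior pituitary. Neither tissue's own difference was called, with an adjusted p of 0.0574 in cerebellum and 0.22 in posterior pituitary. In cerebellum the WT level was 0.140 and 0.352 TPM, and Ephb1 was called lower in WT ECs than in parenchyma there. The part of parenchyma RNA in its response was not tested.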

How the results depend on the processing

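With DESeq2 more members were called in stabilized over WT ECs of cerebellum (12, beside 4.34% of all genes), anterior pituitary (4, 2.79%) and posterior pituitary (15, 6.61%), in cortex bound (13, 10.9%) and choroid plexus bound RNA (7, 3.70%), in the parenchyma of cerebellum, anterior and posterior pituitary (3 each, 4.87, 1.46 and 4.18%) and in choroid plexus input (2, 0.802%). It also called more between WT cerebellum and posterior pituitary ECs (23, 9.75%), between the lobes (16, 5.76%), in cerebellum ECs over parenchyma (38, 18.4%) and in the interactions of posterior pituitary with anterior pituitary (9, 2.48%) and cerebellum (12, 5.88%) and of choroid plexus with cortex (7, 6.58%). With no filter on low counts the counts were 8, 2 and 12 in the 3 sorted ECs (2.25, 1.75 and 3.76% of all genes), 14 in cortex bound (8.11%) and 11 in choroid plexus bound RNA (3.32%), 11 between the lobes (2.92%), 7, 10 and 6 in the same 3 interactions (1.61, 3.28 and 5.2%), 4 and 3 in anterior and posterior pituitary parenchyma (0.924 and 2.06%) and 5 in choroid plexus input (1.54%). With an offset for effective gene length they were 0 in cerebellum ECs (0.329% of all genes) and 0 in cerebellum parenchyma (0.158%). The interaction of posterior pituitary with cerebellum had 0 (0.441%), the lobes 1 (0.508%) and cortex bound RNA 1 (3.41%). For bound over input RNA there were 7 in cortex (7.92%) and 9 in choroid plexus (12.7%). RLE normalization gave 1 in the interaction of choroid plexus with cortex (2.21% of all genes). The difference of Epha4 in cortex input changed sign with the length offset (0.077), as did that of Epha4 between WT cortex and choroid plexus bound RNA (-0.29). Epha3 in posterior pituitary ECs over parenchyma ran from -10.39 to 0 when 1 library was left out, with 0 without parenchyma replicate 2, since the other libraries hold no count. The causes were not tested.

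The replicate block gave 2 members in cerebellum ECs (0.737% of all genes) and 1 in anterior pituitary ECs (0.653%). It gave 1 in the interaction of the lobes (0.179%) and 2 in posterior pituitary parenchyma (0.393%). The block within each preparation gave 20 for cortex bound over input (13.2%). Across tissues and genotypes, correlations of same-numbered libraries ran from -0.21 to 0.072, so there the numbers are not taken to pair the libraries. Input RNA came from aliquots of the lysates used for bound RNA, and only the block within each preparation used that link. The same block was run for GFP-positive over GFP-negative cells, which the main test took as unpaired. It gave 23 members in cerebellum (10.3% of all genes), 32 in anterior (9.94%) and 34 in posterior pituitary (12.8%).

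Leaving out 1 library at a time, with the lone library assumed to vary like the other groups, gave 2 to 5 members in cerebellum ECs, 0 to 2 in anterior and 2 to 8 in posterior pituitary ECs, 1 to 10 between the lobes, 0 to 8 and 1 to 6 in the interactions of posterior pituitary with anterior pituitary and cerebellum (8 and 6 without WT posterior pituitary replicate 1), 18 to 25, 24 to 30 and 28 to 33 for ECs over parenchyma in cerebellum, anterior and posterior pituitary, 0 to 8 in cortex bound RNA, 0 to 4 in the interaction of choroid plexus with cortex, 10 to 18 for choroid plexus bound over input, 5 to 8 in cortex input, and 1 to 4, 0 to 1 and 1 to 3 in cerebellum, anterior and posterior pituitary parenchyma. For peaks at a fold enrichment over 4 and -log10 q over 5, 9 members had a lost peak in anterior pituitary (12.5%, beside 7.26% of all genes). At that setting 27 had a gained peak there (37.5%, beside 28.2%). In cerebellum 34 had a gained peak (47.2%, beside 35.6%) and in posterior pituitary 42 (58.3%, beside 44.9%). Within 10 kb, 10 members had a gained peak in anterior pituitary (13.9%, beside 8.15% of all genes). A lost peak lay near 9 there (12.5%, beside 5.68%). In cerebellum 33 had a gained peak within 10 kb (45.8%, beside 15.9%) and 1 a lost peak (1.39%, beside 1.69%). For posterior pituitary these were 34 (47.2%, beside 19.6%) and 1 (1.39%, beside 1.202%). With 2 libraries per group, differences that missed the threshold were not shown to be absent.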
